A study of Mus musculus with 11 samples.

Results

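Nr2f1 and Nr2f2 are the mouse genes of COUP-TFI and COUP-TFII, a pair of closely related orphan nuclear receptors, and they are 2 of the 21779 coding genes to which the deposited peaks of the chromatin protein Smchd1 were assigned. The pair was selected on peak positions and widths in these same lists, so its counts are a description and no test was applied to them. Nr2f2 was among the genes with the most sequence in peaks, and Nr2f1 had no peak in either list. Within 5 kb of the gene, the list made with micrococcal nuclease (MNase) held 9 peaks at Nr2f2 and 0 at Nr2f1, and the list made with sonication held 1 at Nr2f2 and 0 at Nr2f1. By comparison, 5.28% of all coding genes had an MNase peak within 5 kb and 3.38% had a sonication peak.

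COUP-TF proteins bind DNA through a pair of zinc fingers, at repeats of the sequence AGGTCA, and act mostly as repressors. In the developing brain both are known from progenitor cells and migrating interneurons. Nr2f1 is known for patterning the areas of the cerebral cortex, and Nr2f2 also for giving veins their identity. Smchd1, a member of the SMC protein family, takes part in silencing the inactive X chromosome and several autosomal gene clusters.

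An anti-GFP antibody was used to pull down Smchd1 from formaldehyde-fixed neural stem cells, grown from C57BL/6 embryos of day 14.5 for no more than 20 passages. Homozygous Smchd1 GFP fusion knock-in cells (Smchd1 GFP/GFP) were set against wild-type cells, which lack the tag and were put through the same pull-down, and against whole cell extract, for which no genotype is labelled. For MNase, 2 knock-in libraries (1 female, 1 male) stood beside 2 of wild-type cells (again 1 female, 1 male) and 1 of extract, from female cells. For sonication, which ran for 30 minutes in non-ionic detergent, every library was female, with 2 of each kind. Each experiment was deposited as 1 list of positions, 2840 peaks for MNase and 2196 for sonication, with no value per peak. Depth, signal per library and the spread between replicates are therefore unknown here, knock-in and wild-type cells cannot be compared at these genes, and a gene without a peak is one without a listed peak. The 2 lists differ in fragmentation and in the sexes included at once, so these cannot be told apart in any difference between them.

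Both genes lie on the minus strand, each in a region with few coding genes. Nr2f2 runs from 70351946 to 70366746 on chromosome 7 (mm10), a span of 14801 bp, and Nr2f1 from 78188971 to 78198873 on chromosome 13, a span of 9903 bp. Within 500 kb there was 1 other coding gene at Nr2f2 and 2 at Nr2f1, where the median coding gene had 16. On the side of its start, Nr2f2 had 142.4 kb to the next coding gene, the predicted gene Gm44812, and on the other side 1603 kb to Arrdc4, which encodes an arrestin-like protein. Nr2f1 had 22.7 kb to Fam172a past its 3′ end and 2685 kb to Arrdc3, another arrestin-like gene, beyond its start. The genes are also alike in having a long non-coding RNA that starts inside them on the other strand. B130024G19Rik started 1363 bp downstream of the Nr2f2 start site, and A830082K12Rik started 856 bp downstream of the Nr2f1 start site.

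The annotated start regions of these 4 transcripts are shown because they lie where the gene spans at both loci begin. They are RefSeq windows of 300 bases (GRCm38.p6, the assembly of mm10) from 250 bases before to 50 bases after a start, each written 5′ to 3′ on the strand of its gene, and capitals mark every CG dinucleotide.
Nr2f2 (chr7:70366697-70366996, minus strand): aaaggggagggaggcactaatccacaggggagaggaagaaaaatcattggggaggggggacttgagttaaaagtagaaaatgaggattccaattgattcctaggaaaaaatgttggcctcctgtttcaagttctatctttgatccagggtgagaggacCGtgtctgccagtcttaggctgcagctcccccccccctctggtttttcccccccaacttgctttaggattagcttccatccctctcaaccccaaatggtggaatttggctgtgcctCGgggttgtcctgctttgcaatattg
B130024G19Rik (chr7:70365133-70365432, plus strand): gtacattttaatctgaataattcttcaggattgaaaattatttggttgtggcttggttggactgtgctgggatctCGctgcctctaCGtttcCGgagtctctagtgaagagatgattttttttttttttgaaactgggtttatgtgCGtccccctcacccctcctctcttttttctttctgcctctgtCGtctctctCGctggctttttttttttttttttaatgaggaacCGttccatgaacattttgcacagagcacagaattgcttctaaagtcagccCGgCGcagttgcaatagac
Nr2f1 (chr13:78198824-78199123, minus strand): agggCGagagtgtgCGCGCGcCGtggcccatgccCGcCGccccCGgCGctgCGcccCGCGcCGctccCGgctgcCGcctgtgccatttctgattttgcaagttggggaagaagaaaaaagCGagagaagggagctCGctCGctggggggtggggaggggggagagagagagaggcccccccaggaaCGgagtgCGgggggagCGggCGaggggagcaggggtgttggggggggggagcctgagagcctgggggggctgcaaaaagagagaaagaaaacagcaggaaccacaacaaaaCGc
A830082K12Rik (chr13:78197767-78198066, plus strand): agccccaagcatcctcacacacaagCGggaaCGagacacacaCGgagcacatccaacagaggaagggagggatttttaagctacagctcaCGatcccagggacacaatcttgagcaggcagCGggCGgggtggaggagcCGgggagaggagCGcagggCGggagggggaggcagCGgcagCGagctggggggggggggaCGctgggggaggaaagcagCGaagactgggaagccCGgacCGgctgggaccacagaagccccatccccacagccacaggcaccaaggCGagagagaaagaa

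The window of Nr2f2 held 2 CG dinucleotides and 49.7% G and C, and that of Nr2f1 held 23 and 68.0%. Of the partner transcripts, B130024G19Rik had 9 CG and 42.0% G and C, and A830082K12Rik had 16 and 65.0%. The median over all 32851 windows was 7 CG and 52.7% G and C. The B130024G19Rik window lay wholly inside an MNase peak, the widest at Nr2f2. The Nr2f2 window itself was not overlapped by a peak, but came within 46 bp of one. No peak of either list came within 200 kb of the Nr2f1 or the A830082K12Rik window. The table gives Nr2f1 another start 2424 bp further downstream, whose window (78196400 to 78196699) had 4 CG dinucleotides and no peak within 200 kb. For Nr2f2 it gives 1 start window only, at the outer end of the span. Any further start inside Nr2f2 was not examined, so the 2 genes are compared at their outermost annotated starts. Of all windows, 0.858% were overlapped by an MNase peak. Among the 7071 windows with at least as many CG dinucleotides as that of Nr2f1, 1.53% were. Windows of the same gene can overlap, so these shares do not count separate sites. The COUP-TF recognition letters, AGGTCA or TGACCT on either strand, were found in none of the 4 windows printed and in 16.3% of all windows.

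At Nr2f2 most of the MNase peaks lay inside the gene or past its 3′ end, beginning just downstream of the annotated start. The peak nearest to the start, 600 bp wide from 70366051 to 70366650, lay 96 to 695 bp downstream of the start site. After a gap of 150 bp came the widest peak of the locus, 7950 bp from 70357951 to 70365900, which reached from 846 to 8795 bp downstream of the start. Only 7 of the 2840 MNase peaks were wider. Peaks of 750, 1800 and 300 bp followed in the gene, and another of 1800 bp, from 70350901 to 70352700, crossed the 3′ end. Together these 6 peaks covered 12155 bp of the gene, or 82.1% of its span. The gene table gives spans without exons, so no peak is placed in an exon or intron.

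The covered sequence was placed unevenly around the gene. In the 5 kb past the 3′ end, MNase peaks covered 4700 bp (94.0%), while in the 5 kb before the start they covered 596 bp (11.9%). The next 20 kb on each side, from 5 to 25 kb, had 6395 bp in peaks (32.0%) on the 3′ side and 1204 bp (6.02%) on the side of the start. The peak of 3150 bp from 70347451 to 70350600 was the widest outside the gene, and it adjoined one of 1650 bp with no gap between them. Beyond these, peaks of 1050 and 750 bp closed a stretch that ended 22.4 to 23.2 kb downstream of the start site.

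Another cluster of peaks lay about 31 to 36 kb downstream of the Nr2f2 start, after 7800 bp with no MNase peak. It held 6 peaks of 300 to 900 bp between 70330651 and 70335750, all within the span of Gm29683. This long non-coding RNA gene runs from 70178868 to 70337852, is transcribed from the same strand as Nr2f2, and held 7 MNase peaks in all. The start windows of Gm29683 lay in the gap, 2022 bp or more from the nearest MNase peak. On the other side of Nr2f2 there were 3 MNase peaks of 600 bp each, 4404, 6654 and 16854 bp before the start, all inside B130024G19Rik.

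**Figure D1:**
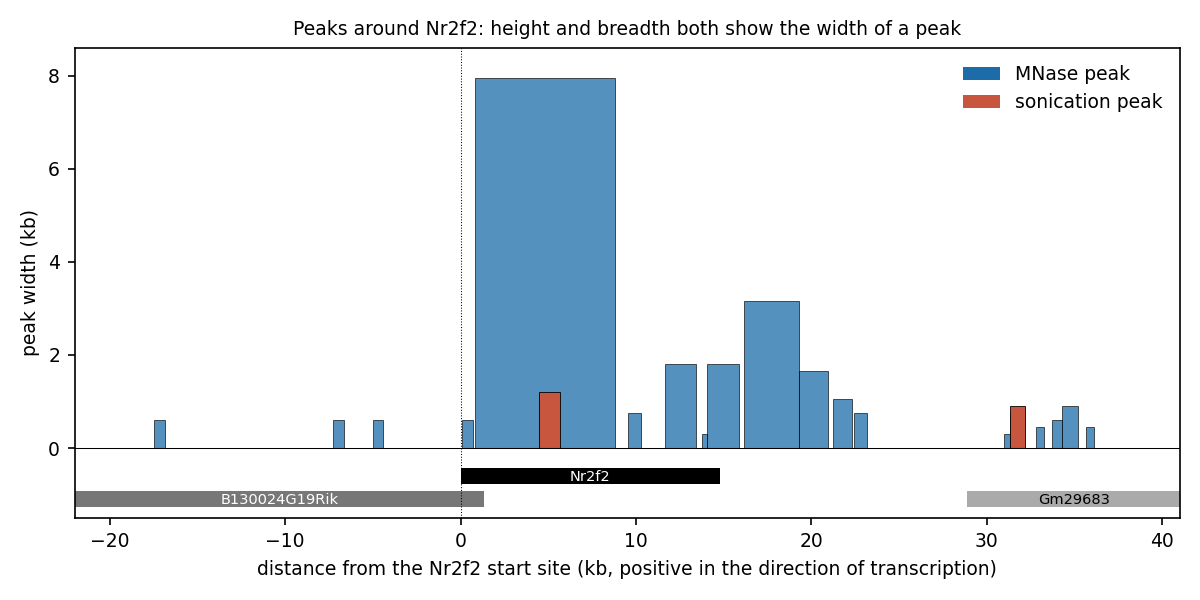
Peaks of both lists around Nr2f2, placed by distance from its start site in kb, with the width of each peak in kb as the height of its bar and gene spans below the axis. The MNase peak of 7950 bp fills much of the gene, further MNase peaks continue past its 3′ end, and the 2 sonication peaks drawn, of 1200 and 900 bp, both stand where MNase peaks do.

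Across 200 kb on each side, the MNase list held 21 peaks at Nr2f2 and 0 at Nr2f1, and 28.4% of coding genes had at least 1 within that distance. Of the 21 peaks, 6 touched the gene, 12 lay on its 3′ side and 3 on the side of its start, with 13.2, 11.4 and 1.8 kb of peak. They formed a compact group: 19 lay between 70330651 and 70384200, a stretch of 53.6 kb of which 46.8% was in peaks. The remaining pair, of 300 and 1050 bp, lay 37.8 and 178.5 kb past the 3′ end. Within the group 4 of the 18 steps from a peak to its neighbour had no gap at all and 9 had a gap of at most 300 bp. The widest gap in the group was 9600 bp, and joining gaps of up to 300 bp left 10 separate stretches. Joined across gaps of up to 300 bp, the widest stretch was 11.6 kb from 70343551 to 70355100, and joined across gaps of up to 1500 bp it was 23.1 kb, to 70366650, with 85.7% in peaks.

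The peaks at Nr2f2 were wide for the MNase list. Their median width was 750 bp, against 450 bp for the list as a whole, and 3 of the 21 (14.3%) had the smallest width of 300 bp, against 38.2% of all MNase peaks. Peaks of at least 1 kb numbered 7 of the 21, and made up 10.7% of the list. The locus held 11.7% of the 180 MNase peaks on chromosome 7 and 26.6% of the sequence in them, 26.4 of 99.3 kb.

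The sonication list marked Nr2f2 at fewer places, with a widest peak of 1200 bp against 7950 bp in the MNase list. The median width within 200 kb was 900 bp over 3 peaks in the sonication list and 750 bp over 21 in the MNase list. In the whole lists the medians were 300 bp for sonication and 450 bp for MNase. The widest peaks of the whole lists were 3150 bp for sonication and 16200 bp for MNase. The sonication list held 3 peaks within 200 kb of Nr2f2 and 0 within 200 kb of Nr2f1. In that range 20.2% of coding genes had at least 1. The peak inside the gene, 1200 bp from 70361101 to 70362300, lay 4446 to 5645 bp downstream of the start and wholly within the MNase peak of 7950 bp. It shared its width with 5 others in the list, and 11 were wider. The next, 900 bp from 70334551 to 70335450, lay in the downstream cluster and covered all 750 bp of an MNase peak that ended on the same base. It also met, with no gap and no shared base, the MNase peak of 300 bp that began at 70335451. The last, 300 bp from 70456201 to 70456500, lay 89.5 kb before the start and 72000 bp from the nearest MNase peak.

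Overlap between the lists was rare, and Nr2f2 held a pair of such places. By an overlap of at least 1 bp, 2 of the 3 sonication peaks and 2 of the 21 MNase peaks within 200 kb of Nr2f2 were shared (66.7% and 9.52%). In the whole lists, 49 of 2196 sonication peaks (2.23%) and 47 of 2840 MNase peaks (1.65%) were shared. Within 5 kb, 0.207% of coding genes, 45 in number, had a shared peak, among them Nr2f2 and not Nr2f1. Of these 45 genes, 28 were Hox genes, the homeobox genes that pattern the body axis, and 17 were not. Nr2f2 had the most sequence in MNase peaks of the 17, followed by Evx2, a homeobox gene beside the HoxD cluster (15420 bp), and Tfap2a, a neural crest transcription factor gene (13650 bp).

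Peaks just inside and outside the distances used were few. The farthest MNase peak counted within 5 kb lay 4495 bp from Nr2f2, on its 3′ side, and the nearest left out lay 6445 bp away. At 200 kb, the farthest counted was 178.5 kb from Nr2f2, and the nearest left out were sonication peaks, 224.9 kb from Nr2f2 and 256.4 kb from Nr2f1.

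**Figure D2:**
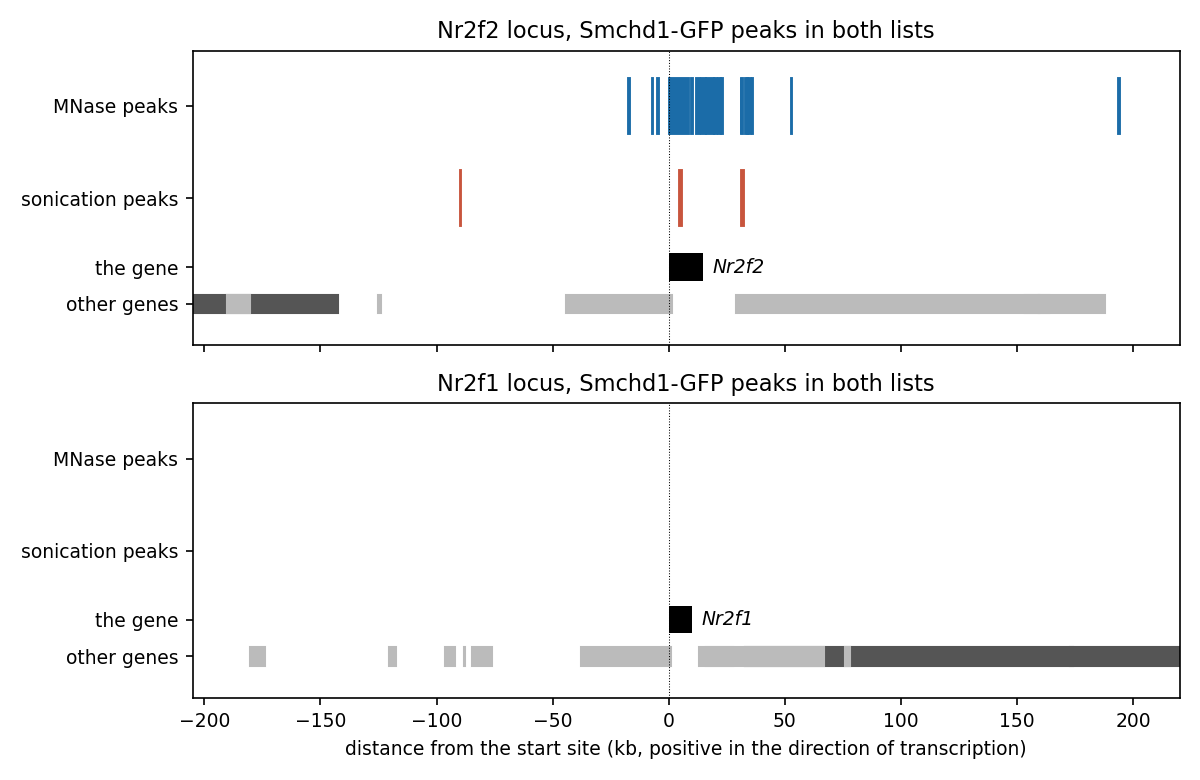
Peaks of both lists around Nr2f2 (upper panel) and Nr2f1 (lower panel) by distance from the start site in kb, with coding genes in dark grey and other genes in light grey below; narrow peaks are drawn slightly wider than they are. All 21 MNase and 3 sonication peaks within 200 kb are at Nr2f2, and the Nr2f1 panel has none.

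Nr2f1 lay in a long part of chromosome 13 without MNase peaks. The nearest was 749.8 kb past its 3′ end, 450 bp from 77438701 to 77439150, and the nearest beyond its start was 5212 kb away, 300 bp from 83410951 to 83411250. The stretch between them, 5.97 Mb, was the longest but 1 of the 172 gaps between MNase peaks on the chromosome. It ranked 31 of 2712 in the genome. The median gap was 0.180 Mb on the chromosome and 0.413 Mb in the genome. A gap picked because it holds a given gene tends to be long, so the medians are a description only. The stretch held 9 coding genes (1.51 per Mb), among them Adgrv1, which encodes a giant adhesion receptor, and Cetn3, a centrin gene. Sonication peaks were not missing from it, with 4 in all. Those nearest to Nr2f1 were 300 bp wide each, one from 78455251 to 78455550, 256.4 kb before the start, and one from 77387551 to 77387850, 801.1 kb past the 3′ end and outside the stretch. The gap between these 2 sonication peaks, 1.07 Mb, was close to the chromosome's median of 1.04 Mb for that list.

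Among other genes within 200 kb, some at Nr2f2 and none at Nr2f1 held a peak, which was not tested. These counts reuse the peaks already described and add no separate evidence. With no peak within 200 kb of Nr2f1, only Fam172a, whose span runs past that distance, could have held one there. Of the 21779 coding genes, 899 had MNase peak sequence inside their span, and no such share was computed for non-coding genes. At Nr2f2, 2 of 7 other genes held MNase peaks, Gm29683 with 7 and B130024G19Rik with 5. Those of B130024G19Rik include the peaks of 7950 and 600 bp that also lie in Nr2f2, because the spans overlap. Gm29683 also held the sonication peak of 900 bp. Gm35271, Gm35325, Gm7656, Gm35842 and the coding gene Gm44812 held none of either list. For these 5 the nearest MNase peak was 29.4 to 162.9 kb away. At Nr2f1, none of the 11 other genes held a peak, including the coding genes Fam172a and Pou5f2 and the long non-coding RNA gene A830082K12Rik. For the 11 the nearest MNase peak was 269.5 to 933.6 kb away. Neither member lay in one of the broad domains of the deposited domain list. No share of all coding genes in domains is given here, so this is not read as a trait of the pair. Chromosome 7 had 0 domains, so Nr2f2 could not lie in one. The 1 domain on chromosome 13, from 65450001 to 66880000, was 11.3 Mb from Nr2f1.

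Among all coding genes, Nr2f2 stood behind Hox genes alone in the sequence covered by MNase peaks. With 5 kb on each side it had 17451 bp in peaks, and 6 genes had more: Hoxa3, Hoxd3, Hoxc6, Hoxd10, Hoxa10 and Hoxb3, with 43809, 29479, 21300, 20084, 18458 and 18430 bp. The median of the 1151 coding genes with an MNase peak in that range was 600 bp. Windows of neighbouring Hox genes share peaks, so these are not 6 separate places. As a share of the window, Nr2f2 had 70.4% in peaks, and 22 genes had more, 21 of them Hox genes and the other Evx2. By number of peaks, 18 genes had more than its 9. Counting the gene span alone put 7 genes above its 12155 bp, among them Tfap2a and Sfi1, a centrosome gene, which are not Hox genes.

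**Figure D3:**
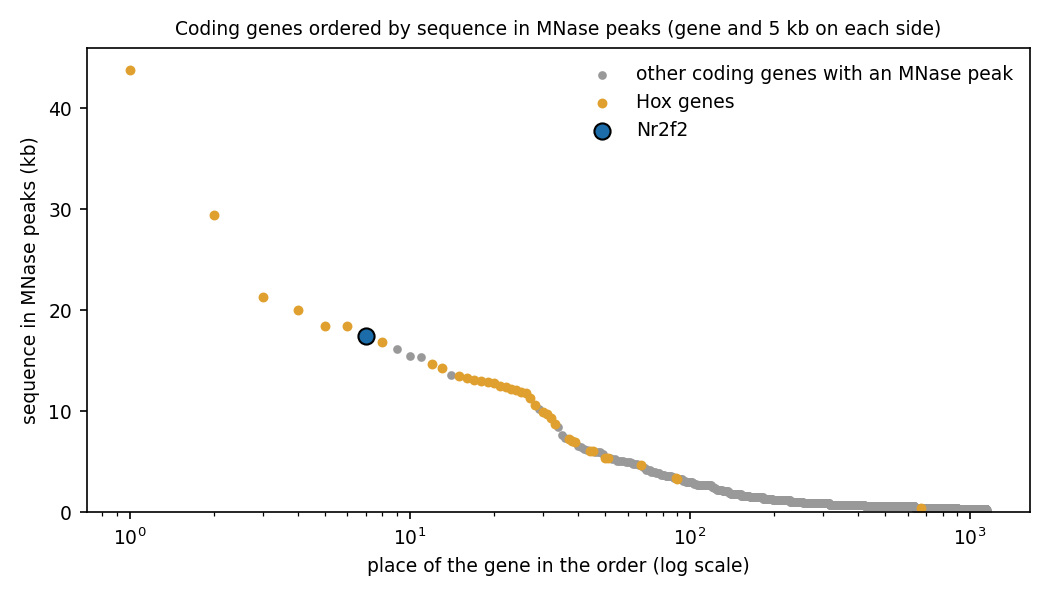
The 1151 coding genes with an MNase peak within 5 kb, in order of the sequence in MNase peaks in the gene and 5 kb on each side (kb), with the place in the order on a log scale. Nr2f2 (large point) is at place 7 with 17.5 kb, the highest point that is not a Hox gene; Nr2f1, with 0, is not among the points.

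Among genes with a shared peak, those closest to Nr2f2 in the sequence covered by MNase peaks were Hox genes. Of the 44 other coding genes with a shared peak within 5 kb, leaving out predicted genes, the closest in sequence covered by MNase peaks were Hoxd11 with 16859 bp in 4 peaks, Hoxb3 with 18430 bp in 21 peaks and Hoxa10 with 18458 bp in 3 peaks. They differed from Nr2f2 by 0.05, 0.08 and 0.08 on the log2 scale. The likeness is over the 2 lists only, and the order used the covered sequence alone. Most of the genes compared, 28 of the 44, were Hox genes. Nr2f2 had 9 MNase peaks, unlike any of these 3, and Hoxb3 spans 40830 bp against 14801 bp for Nr2f2. The likeness was also smaller in the number of sonication peaks for Hoxa10, which had 4, where Hoxd11, Hoxb3 and Nr2f2 had 1 each. No such order could be made for Nr2f1, which had no peak.

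In the COUP-TF subfamily, Nr2f6, the third gene, was like Nr2f1 and had 0 peaks within 5 kb in either list. Its start window was the richest in CG of the family, with 53 CG dinucleotides, and lay 526.1 kb from the nearest MNase peak. Of 49 nuclear receptor genes, 9 (18.4%) had an MNase peak within 5 kb, where 5.28% of all coding genes had one. A sonication peak was listed for 4 (8.16%), where 3.38% of all coding genes had one. Both counts include Nr2f2, which was chosen on its peaks in these same lists, so the shares are a description. Nuclear receptor genes were also longer, with a median span of 47.1 kb, against 17.2 kb for all coding genes, and the part of length in these shares was not tested. Of the 9 genes, 7 had 600 bp or less in MNase peaks: the thyroid hormone receptor genes Thra and Thrb with 600 bp each, the oestrogen receptor gene Esr1 and the glucocorticoid receptor gene Nr3c1 with 450 bp each, and Rxrg, Rora and Esrrg with 300 bp each. Nr3c2, the mineralocorticoid receptor gene, had 4950 bp in 2 peaks, and Nr2f2 had 17451 bp in 9. The genes with a sonication peak included Nr2f2, Nr3c1 and the retinoic acid receptor gene Rarb. Nr2f2 was the 1 receptor gene at which peaks of both lists overlapped.

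**Figure D4:**
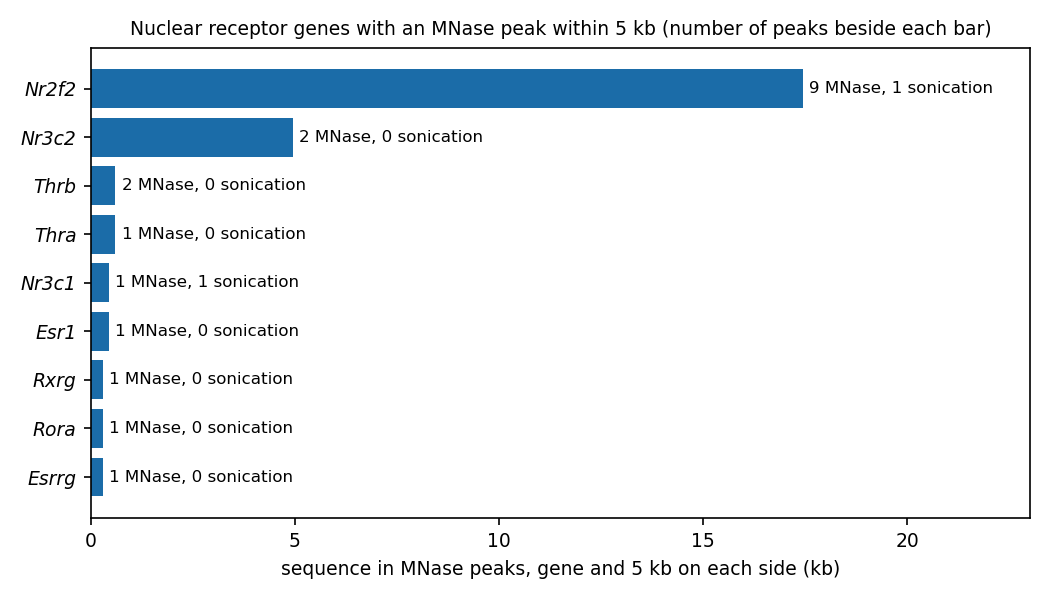
The nuclear receptor genes with an MNase peak within 5 kb, by the sequence in MNase peaks in the gene and 5 kb on each side (kb), with the number of MNase and sonication peaks beside each bar. Nr2f2 has 17.5 kb, Nr3c2 has 4.95 kb and the others have 0.6 kb or less.

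Among genes that act with or beside COUP-TF proteins, Bcl11a and Sp8 had MNase peaks within 5 kb and Zfpm2 had a sonication peak, where 5.28% of all coding genes had an MNase peak and 3.38% a sonication peak. Among known protein partners, Bcl11a, a zinc finger gene of the forebrain, had 4 MNase peaks with 3900 bp and no sonication peak, and Zfpm2, a cofactor gene of heart and gonad, had 1 sonication peak of 750 bp and no MNase peak. Zfpm1, Bcl11b and Ncor1 had 0 in both lists. Among regulators of cortical patterning, Sp8, a zinc finger gene, had 4 MNase peaks with 3900 bp and no sonication peak, and Emx1, Emx2, Pax6, Fgf8, Fgf17, Lhx2, Dmrta2 and Dmrt3 had 0 in both lists. Of 8 genes of venous and arterial identity, among them Nrp2, Ephb4 and Efnb2, none had a peak in either list. These lists are short and their counts were not tested.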

How the data were processed

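Per the submitters' processing notes, bcl2fastq, Bowtie 0.12.9, MACS2 and the build mm10 were used, with no role or order given. The authors deposited 1 pooled peak list per experiment and a list of broad domains; no source used here says how the control libraries entered the lists. The layout is that of an annotated probe report, per the file headers, and the MNase list names SeqMonk in its cells. Only start and end positions were used. All starts and widths fall on a grid of 150 bp, the smallest width is 300 bp, and the value column is empty in every row. Genes, start windows and sequences came from RefSeq tables of GRCm38.p6, and both members and all 49 nuclear receptor names matched. Of the gene records, 340 in the opening 3 Mb of a chromosome were left out, and 49603 were used. A peak was counted within 5 or 200 kb if it shared a base with the gene span extended by that distance. Bases in peaks were counted once. Counts were checked on simulated data with Python 3.11.15 and pandas 2.3.3. The members, gene lists and comparisons were chosen with earlier results of these data known. Other genes were named by place within 200 kb, by membership of 5 gene lists, or by likeness to a member (an MNase peak that a sonication peak overlaps within 5 kb, and the closest log2 bases in MNase peaks); genes at the top of an order were named after their values were seen. Some genes of these lists and orders are not reported here. No library was compared with another, so no leave-one-out or statistical test could be made.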

Additional observations from a re-analysis of the deposited data

How the results depend on the processing

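Under other distances, a stricter list of peaks wider than 300 bp, merging of adjoining peaks and other definitions of overlap, 58 values were recomputed. Of these, 55 stayed within 1.5 times the value reported. The 55 include counts of 0 at Nr2f1 that stayed 0, for which a ratio has no meaning. They also include values at the limit itself, such as 6 MNase peaks in the Nr2f2 span against 9 within 5 kb. With 500 kb on each side in place of 200 kb, the sonication list had 6 peaks at Nr2f2 in place of 3 and 1 at Nr2f1 in place of 0. Counting peaks up to 1 kb apart as shared gave 4 overlapped MNase peaks within 200 kb of Nr2f2 in place of 2. The MNase count of 0 at Nr2f1 stayed at 0 in each of these settings. No paired analysis was possible because each experiment was deposited as 1 pooled list. Sequencing depth is unknown, so a listed 0 may reflect depth or the threshold of the list, and how much of each locus could be mapped was not tested.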
